A study of Mus musculus with 6 samples.

Results

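Mucins, aquaporins and the gland transcription factor Sox9 were followed in the olfactory mucosa of mice in which 1 nostril was closed. The set holds 8 genes chosen by symbol: the mucins Muc5b, Muc2 and Muc16, the aquaporins Aqp1, Aqp3, Aqp4 and Aqp5, and Sox9. Of these 8, 7 had a row among the 24315 rows of the expression table, and Muc16 is not analysed here. The closed group is whole olfactory mucosa from the closed nostril of 3 wild-type C57BL/6 mice at postnatal day 11, and the open group is the same tissue from the open nostril of the same 3 mice. Both groups therefore come from animals that carried a closed nostril, and the sources used here do not give how or for how long it was closed. The values are FPKM, a fragment count corrected for the length of the transcript and the size of the library, with 1 library per side and mouse.

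The olfactory epithelium is covered by mucus in which odorants dissolve before they reach the cilia of sensory neurons. Bowman's glands in the lamina propria below secrete much of this layer through ducts, and the supporting (sustentacular) cells between the neurons help to set its water and salt content. Gel-forming mucins give mucus its viscosity, aquaporins are membrane channels for water, and Sox9 is a transcription factor of gland and duct cells that also specifies cartilage.

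The libraries held 24958172 to 39595257 reads on the closed side and 33945264 to 43584803 on the open side. Olfactory neuron markers were abundant. Omp, the olfactory marker protein, stood at 1916 to 2176 FPKM in closed mucosa and 1414 to 2212 FPKM in open mucosa. The library from the open side of mouse 2 stood apart. Its summed FPKM over 12 sustentacular markers was 8084, against 5848 to 6291 in the other 5 libraries, and its sum over 11 olfactory neuron markers was 4186, against 4935 to 6331 in the others. The closed library of mouse 1 was the shallowest, and small RNA rows took 11.3% of its FPKM, against 3.47% to 5.27% elsewhere. In tissue RNA of this kind, fewer cells of a type and less RNA per cell cannot be told apart.

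No difference between closed and open mucosa was detectable in any of the 7 genes with 3 libraries per side. Each log2 change, closed minus open on log2(FPKM + 1), lay within 0.25 of 0. This scale understates the change of low genes. A change past the test means here an adjusted p under 0.05 in limma, with Benjamini-Hochberg adjustment over the 14788 rows whose mean reached 1 FPKM. That test called 0 of the 7, against 0.0473% of all rows tested, of which 0.0406% were lower and 0.00676% higher in closed mucosa. At an unadjusted p under 0.05 it also gave 0 of the 7, against 1.45% of all rows. The sides overlapped in each of the 7, whereas they did not overlap in 3.37% of all rows, with closed below open in 2.09% and above it in 1.28%. A log2 change within 0.25 was the usual case, found in 93.9% of all rows. What the data add is the width of the intervals: the 95% intervals of the 7 changes reached at most 0.50 upward, for Muc5b, and -0.83 downward, for Aqp4. These intervals, and the SEs below, come from the fit with no mouse term. With mouse as a term the SE was lower for some genes, such as Aqp3 (0.12 in place of 0.18). For others it was higher, such as Muc5b (0.24 in place of 0.22).

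The order of levels, which FPKM allows because it is scaled to length, ran from Aqp3 at 214.2 ± 35.4 FPKM (mean ± SD over the 6 libraries) through Aqp5 at 130.6 ± 19.6, Aqp1 at 91.7 ± 15.7 and Aqp4 at 60.2 ± 16.8 FPKM to the mucins and Sox9. Each of these 4 aquaporins stood above the next one in 6 of 6 libraries. The margin between neighbours was not even, since Aqp3 was 1.51 to 1.85 times Aqp5 while Aqp1 was 1.04 to 2.14 times Aqp4. Muc5b, at 10.9 ± 2.5 FPKM, lay above Muc2, at 9.80 ± 2.01, in 5 of 6 libraries. Muc2 lay above Sox9, whose mean was 7.36 FPKM, also in 5 of 6. Neighbours among the last 3 genes in the order therefore did not separate beyond their spread. Among all 24315 rows Aqp3 ranked 370th by mean FPKM, Aqp5 651st, Aqp1 981st, Aqp4 1609th, Muc5b 7564th, Muc2 8042nd and Sox9 9210th.

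**Figure D1:**
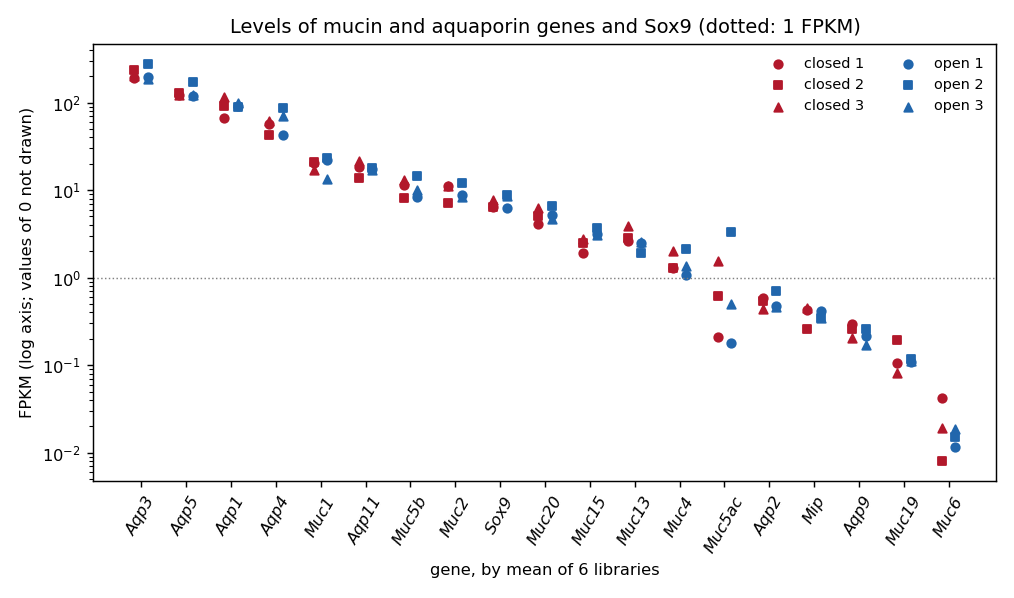
FPKM (log axis) of the 7 genes and of the other mucin and aquaporin genes with a mean over 0.01 FPKM, in closed libraries (red, left) and open libraries (blue, right), with marker shape for the mouse. The 4 aquaporins Aqp3, Aqp5, Aqp1 and Aqp4 stand at the top, and Muc5ac has the widest spread, with 0.18 to 3.35 FPKM.

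Muc5b and Muc2 encode secreted, gel-forming mucins. Muc5b is a main mucin of airway glands, and Muc2 is best known as the mucin of intestinal goblet cells. Muc5b measured 11.3, 8.18 and 13.05 FPKM in the closed libraries of mice 1, 2 and 3, against 8.38, 14.3 and 9.96 FPKM in their open libraries. Closed mucosa was thus higher in mice 1 and 3 and lower in mouse 2, and the mean was 10.9 ± 2.47 FPKM in closed mucosa and 10.9 ± 3.09 FPKM in open mucosa (SD, n = 3 each). The log2 change of Muc5b was 0.00 (SE 0.22, 95% interval -0.49 to 0.50).

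Muc2, too, was higher in closed mucosa in mice 1 and 3 and lower in mouse 2. It measured 11.2, 7.10 and 11.2 FPKM in closed libraries, against 8.87, 12.2 and 8.24 FPKM in open libraries of mice 1, 2 and 3. Its means were 9.83 ± 2.36 FPKM in closed and 9.77 ± 2.11 FPKM in open mucosa, and its log2 change was 0.00 (SE 0.20, 95% interval -0.46 to 0.46). In folds of FPKM + 1 the interval runs from 0.711 to 1.42 for Muc5b and from 0.726 to 1.38 for Muc2. The ratio of Muc2 to Muc5b kept a narrow range, at 0.99, 0.87 and 0.86 in closed libraries and 1.06, 0.85 and 0.83 in open libraries.

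Muc2 and Muc5b are 2 of 4 mucin genes that follow each other on chromosome 7, in the order Muc6, Muc2, Muc5ac and Muc5b in the RefSeq annotation of GRCm38.p6. The other 2 genes of this cluster had far lower FPKM. Muc6, a gastric gland mucin, reached at most 0.042 FPKM in any library. Muc5ac, the mucin of airway surface goblet cells, measured 0.21, 0.62 and 1.54 FPKM in closed libraries, against 0.18, 3.35 and 0.50 FPKM in open libraries. Its log2 change of -0.21 had an interval from -1.31 to 0.89, so that the data set little limit on it.

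The stretch just before the start of Muc2 is shown because this gene had a level close to that of Muc5b while Muc6 and Muc5ac, on either side of it, did not. It covers 250 bases at chr7:141690090-141690339, plus strand, from RefSeq on GRCm38.p6. The deposited values were made on mm9, so these positions do not apply to the deposited data. Capitals mark every match, on either strand, to TATAAA (the TATA box), GGGCGG (the GC box bound by Sp1), ACAATG or ACAAAG (SOX factors) and AGGAAG (ETS factors).
Muc2: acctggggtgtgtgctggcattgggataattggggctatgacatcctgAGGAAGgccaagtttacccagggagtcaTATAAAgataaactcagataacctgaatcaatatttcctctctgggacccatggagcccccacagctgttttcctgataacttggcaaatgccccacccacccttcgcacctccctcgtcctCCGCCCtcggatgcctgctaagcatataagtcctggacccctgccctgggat
The matches are AGGAAG from 202 to 197 bases before the start, TATAAA from 174 to 169 and GGGCGG, on the strand opposite to the one printed, from 52 to 47. Over 32851 promoter windows of the same 250 bases, 29.5% hold the ETS letters, 12.4% TATAAA, 32.7% the GC box and 25.2% either set of SOX letters. Only these exact letters were searched. The unmarked tataag, which differs from TATAAA in its last letter, lies between the GC box letters and the start. A match describes the letters and not a bound site.

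Other mucins included both lower and higher values in closed mucosa, none past the test. Of 10 further mucin genes listed, 9 had a row and 6 reached the floor of 1 FPKM. Of these 6, 0 passed the test, 1 had an unadjusted p under 0.05 (lower), 3 lay below 0 and 3 above, and their median log2 change was -0.03, against -0.01 over all rows. With 1 library left out this median ranged from -0.19 without the open library of mouse 3 to 0.17 without that of mouse 2. Muc15, a membrane-bound mucin, measured 1.90, 2.51 and 2.78 FPKM in closed libraries, against 3.13, 3.72 and 3.06 FPKM in open libraries, with no overlap. Its log2 change was -0.35, with an SE of 0.15 and a limma adjusted p = 0.999991. Muc13, another membrane-bound mucin, lay the other way, with 2.64, 2.84 and 3.91 FPKM in closed against 2.51, 1.90 and 2.55 FPKM in open libraries and a log2 change of 0.31 (SE 0.16). Both differences were in the same direction in 3 of 3 mice, but neither passed the test. Muc20 had a log2 change of -0.08. Muc1, the most abundant of the mucins listed, measured 20.3, 21.2 and 16.8 FPKM in closed libraries, against 22.1, 23.1 and 13.5 FPKM in open libraries.

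Genes that fold and glycosylate mucins had small log2 changes, none past the test. Of 30 listed genes 29 had a row and 20 were tested, and all 20 of those had a log2 change below 0, with a median of -0.12 and a range from -0.33 to 0.00. In comparison 54.0% of all rows tested lay below 0. None of the 20 passed the test, and 0 had an unadjusted p under 0.05. Part of this count went with the open library of mouse 2, in which 12 of the 20 had their highest value, against 18.5% of all rows tested. Without that library 12 of the 20 lay below 0, with a median of -0.03. Without the closed library of mouse 1, 14 did, with a median of -0.07. The lowest p belonged to Agr3, a relative of the mucin-folding disulfide isomerase Agr2 (log2 change -0.33), then to Gcnt1, which branches O-linked sugars (-0.26), Galnt10, which starts them (-0.14), and the transcription factor Creb3l1 (-0.17). Agr2 itself was high, with 307.8, 237.3 and 212.4 FPKM in closed libraries, against 225.3, 348.9 and 257.1 FPKM in open libraries.

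Among the aquaporins, Aqp5 is the apical water channel of gland acini, and Aqp3 is an aquaglyceroporin, a channel that passes glycerol as well as water, typical of basal and basolateral membranes. Aqp5 measured 122.3, 127.1 and 123.1 FPKM in the closed libraries of mice 1, 2 and 3, against 118.3, 170.2 and 122.8 FPKM in their open libraries. The 3 closed values were close to each other, and the open library of mouse 2 alone stood higher. Aqp5 averaged 124.2 ± 2.56 FPKM in closed and 137.1 ± 28.8 FPKM in open mucosa (SD, n = 3 each), a log2 change of -0.12 (SE 0.16, 95% interval -0.48 to 0.23). Without the open library of mouse 2 the change was 0.042.

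Aqp3 measured 189.8, 235.3 and 200.8 FPKM in closed libraries, against 197.5, 276.7 and 185.0 FPKM in open libraries. Mouse 2 had the highest value on both sides. The means were 208.6 ± 23.7 FPKM in closed and 219.7 ± 49.7 FPKM in open mucosa, and the log2 change was -0.06 (SE 0.18, 95% interval -0.47 to 0.36). Aqp5 stood at 0.64, 0.54 and 0.61 of Aqp3 in closed libraries and at 0.60, 0.62 and 0.66 in open libraries, so that these ratios overlapped too. Across the 6 libraries the log2 levels of Aqp3 and Aqp5 had a Pearson r of 0.89, given as a description since the libraries come from 3 mice and share the high open library of mouse 2.

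The 250 bases before the start of Aqp3, the most abundant of the 7 genes, are given from RefSeq on GRCm38.p6, at chr4:41098184-41098433 on the minus strand, with the same marks as for Muc2.
Aqp3: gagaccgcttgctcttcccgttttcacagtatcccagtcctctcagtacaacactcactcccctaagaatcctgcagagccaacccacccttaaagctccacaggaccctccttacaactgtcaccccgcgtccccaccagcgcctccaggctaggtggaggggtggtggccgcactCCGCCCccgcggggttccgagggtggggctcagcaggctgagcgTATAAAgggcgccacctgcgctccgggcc
TATAAA lies from 29 to 24 bases before the start. The GC box letters lie on the strand opposite to the one printed, from 73 to 68. The window holds none of the SOX or ETS letters searched.

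Aqp4, a water channel of glia and of the basolateral membrane of supporting and gland cells, had the largest SE of the log2 change among the 7. Its values were 57.1, 43.0 and 62.3 FPKM in closed libraries, against 42.2, 86.0 and 70.7 FPKM in open libraries. Closed mucosa was higher in mouse 1 and lower in mice 2 and 3, with log2 differences of 0.43, -0.98 and -0.18. The means were 54.1 ± 9.997 FPKM in closed mucosa and 66.3 ± 22.2 FPKM in open mucosa, a log2 change of -0.25 (SE 0.26, 95% interval -0.83 to 0.34). Leaving out the open library of mouse 1 moved the change to -0.54, and leaving out that of mouse 2 moved it to -0.03. Ensheathing glia markers, of which 9 of 10 lay below 0 and none was at 0 FPKM, summed to 291.7 to 374.6 FPKM in closed mucosa and 320.1 to 649.1 FPKM in open mucosa, with the highest sum on the open side of mouse 3. Without that library 7 of the 10 lay below 0, with a median of -0.05 in place of -0.25, and the part of glia in the Aqp4 values was not tested.

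Unlike the other 6 genes, Aqp1, the water channel of vessel endothelium and red cells, was not highest in the open library of mouse 2. It measured 66.0, 91.3 and 114.8 FPKM in closed libraries, against 90.3, 89.7 and 97.9 FPKM in open libraries. Here the spread lay on the closed side, with the lowest value in mouse 1 and the highest in mouse 3, while the 3 open values were close together. The means were 90.7 ± 24.4 FPKM in closed mucosa and 92.6 ± 4.6 FPKM in open mucosa (SD, n = 3 each). Its log2 change of -0.06 (SE 0.19, 95% interval -0.50 to 0.37) became 0.14 without the closed library of mouse 1 and -0.25 without that of mouse 3.

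Endothelial markers, like Aqp1, were lowest in the closed library of mouse 1. All 12 of them had their lowest value there, against 15.8% of all rows tested. The endothelial sum was 79.3, 118.7 and 129.3 FPKM in closed libraries, against 123.0, 99.8 and 130.5 FPKM in open libraries. None of the 12 was at 0. In log2 change 11 of the 12 lay below 0, with a median of -0.15, but without the closed library of mouse 1 only 2 did, with a median of 0.11. Without the closed library of mouse 3 the median was -0.25 and without the open libraries of mice 2 and 3 it was -0.23 and -0.04. Their part in the Aqp1 values was not tested. Erythroid markers, 11 with a row, had their highest sum in that same closed library, 734.2 FPKM, against 279.7 to 434.2 FPKM in the other 5, and so went the other way from Aqp1. The values of the near-identical Hba-a1 and Hba-a2, and of the Hbb genes, are uncertain, because reads may be split between copies.

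The other aquaporins were low apart from Aqp11. Of 8 listed, 7 did not reach a mean of 1 FPKM. Aqp11, an aquaporin of intracellular membranes, was the 1 that did, with 18.3, 13.8 and 21.5 FPKM in closed libraries, against 17.2, 18.1 and 17.1 FPKM in open libraries, and a log2 change of 0.01 (SE 0.16). Aqp5 lies between Aqp2 and Aqp6 on chromosome 15 of GRCm38.p6, and Aqp7 lies next to Aqp3 on chromosome 4. These neighbours stood far below, Aqp2 at 0.44 to 0.71 FPKM and Aqp6 and Aqp7 at or under 0.017 FPKM over the 6 libraries. Aqp12 was listed at 0 in all 6.

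Channels, pumps and receptors that move salt and water with the aquaporins were tested in 19 of 20 cases. Of the 19, 17 lay below 0, with a median of -0.16, and 0 passed the test. The median was -0.06, with 14 below 0, without the closed library of mouse 1, and -0.07, with 18 below 0, without the open library of mouse 2. One, Kcnn4, a calcium-activated potassium channel of secretory cells, had an unadjusted p under 0.05, with 4.51, 6.59 and 6.47 FPKM in closed libraries, against 7.95, 8.97 and 6.73 FPKM in open libraries. Its log2 change was -0.38 (SE 0.16), with a limma adjusted p = 0.999991. The sodium channel subunit Scnn1b (-0.33) and the anion exchanger Slc26a4 (-0.30) likewise showed no overlap between sides, and Kcnj10, a potassium channel found with Aqp4 in glia, had a log2 change of -0.37. Genes of chloride transport lay within the spread, with log2 changes of -0.04 for the cotransporter Slc12a2, -0.16 for the channel Ano1 and -0.19 for Cftr. Which cells of the whole mucosa these values came from was not tested. The closed library of mouse 1 held the lowest value for 10 of the 19, against 15.8% of all rows tested.

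**Figure D2:**
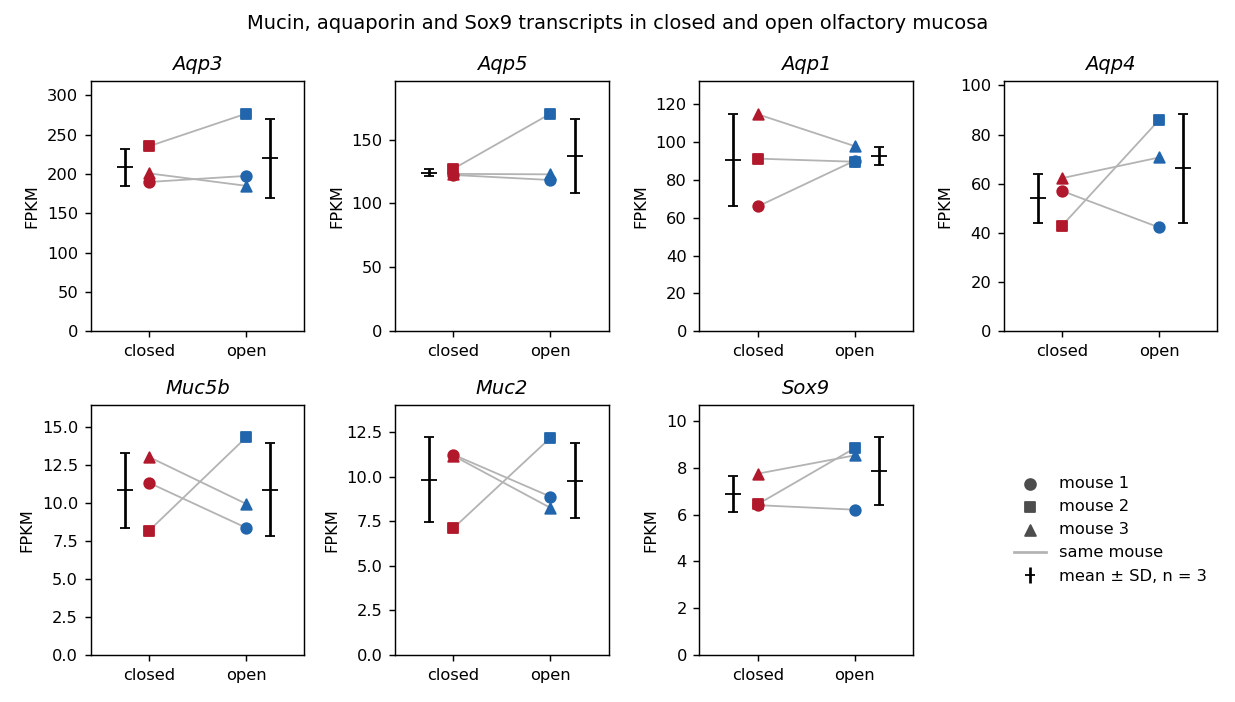
FPKM of the 7 genes in closed (red, left) and open (blue, right) libraries. Marker shape gives the mouse, grey lines join the sides of 1 mouse, and black bars give the mean ± SD (n = 3 per side). The sides overlap in every panel, and the open library of mouse 2 is the highest of the 6 for each gene but Aqp1.

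Sox9 is expressed in Bowman's gland and duct cells and drives cartilage formation elsewhere in the nose. It measured 6.40, 6.44 and 7.75 FPKM in the closed libraries of mice 1, 2 and 3, against 6.21, 8.85 and 8.53 FPKM in their open libraries. The highest 2 values were both open, and the lowest was open too. Sox9 averaged 6.87 ± 0.766 FPKM in closed and 7.86 ± 1.44 FPKM in open mucosa, with a log2 change of -0.16 (SE 0.15, 95% interval -0.51 to 0.19).

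The sum of the cartilage markers did not share the order of Sox9. Their summed FPKM was 169.0, 178.7 and 149.8 in closed libraries, against 199.5, 128.5 and 150.1 in open libraries. The library with the most Sox9, the open side of mouse 2, thus had the lowest sum. Col11a2, the most abundant of the markers, was also lowest there, at 38.4 FPKM. In all 2 of the 9 tested markers were lowest there, against 11.2% of all rows tested, and Col9a1 was highest there, at 16.1 FPKM. Col2a1, a collagen gene that Sox9 activates in cartilage, was at 7.43 to 7.95 FPKM in closed mucosa and 6.38 to 7.99 FPKM in open mucosa. None of the 12 cartilage markers was at 0 in all libraries, and 9 were tested, with 5 above and 4 below 0. Their median of 0.05 ranged from -0.06 to 0.13 with 1 library left out.

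Sox10 and Sox8 belong to the same SOX subgroup as Sox9, and Sox10 marks both gland cells and glia. Sox10 measured 17.6, 14.6 and 20.2 FPKM in closed libraries, against 16.4, 19.4 and 19.5 FPKM in open libraries (log2 change -0.08). Sox8 had a log2 change of -0.16. They are part of a list of 24 gland development genes, of which 20 were tested, 17 lay below 0 and 0 passed the test, with a median of -0.14. Barx2, a homeobox factor of gland branching, had the lowest p of the list, with 1.64, 1.78 and 1.82 FPKM in closed libraries, against 3.27, 4.51 and 2.47 FPKM in open libraries. Its sides did not overlap, and its log2 change was -0.66 (SE 0.18, 95% interval -1.08 to -0.25), with a limma adjusted p = 0.999991. It was the 1 gene of this list with an unadjusted p under 0.05. The ETS factors Etv5 and Etv4, which act downstream of fibroblast growth factor, had log2 changes of -0.34 and -0.28, and Xbp1, a factor of secretory cells, had -0.18. In 12 of the 20 tested genes the highest value was that of the open library of mouse 2, against 18.5% of all rows tested. Without that library 14 of the 20 lay below 0, with a median of -0.07. Without the closed library of mouse 1 the count was again 14, with a median of -0.08, and without the open library of mouse 1 it was 19, with a median of -0.22.

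**Figure D3:**
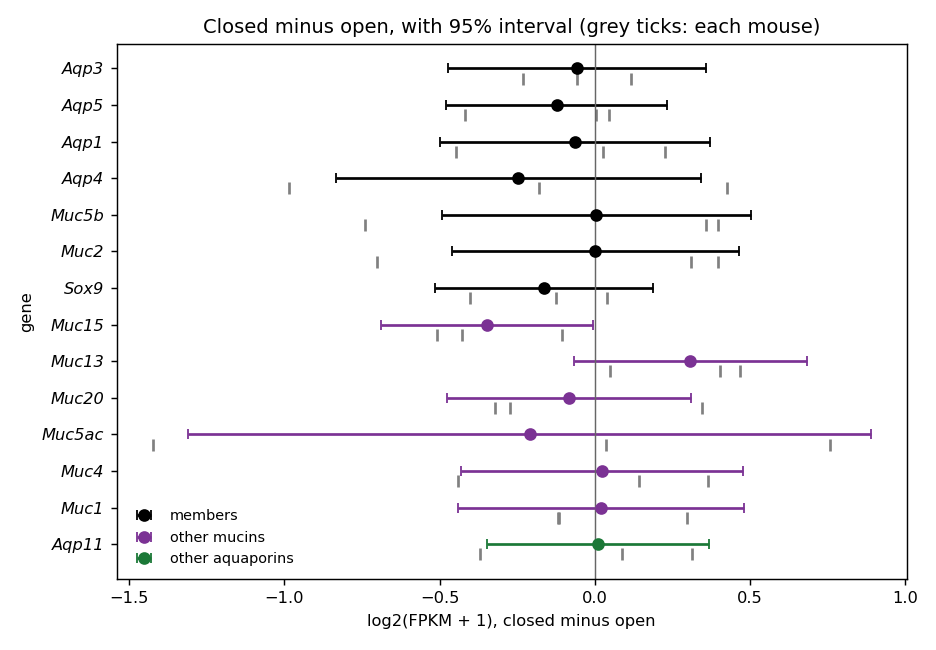
Log2 change, closed minus open on log2(FPKM + 1), with its 95% interval from limma (3 libraries per side), for the 7 genes (black), other mucins (purple) and Aqp11 (green), and the change within each mouse as grey ticks. The interval of each of the 7 genes covers 0, and Muc5ac has the widest interval, from -1.31 to 0.89.

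Which side was higher depended on the mouse, as it did in most rows tested. In mouse 1, 5 of the 7 were higher in closed than in open mucosa, and in mouse 3 again 5. In mouse 2, 6 of the 7 were lower in closed mucosa. None of the 7 was lower in 3 of 3 mice, which 9.18% of all rows were, and none was higher in 3 of 3, which 7.41% were. The open library of mouse 2 held the highest value of the 6 libraries for 6 of the 7 genes, Aqp1 being the other, whereas it held the highest value of 18.5% of all rows tested. That same library had the highest sustentacular sum and the lowest neuron sum, and the part of tissue make-up in these values was not tested.

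**Figure D4:**
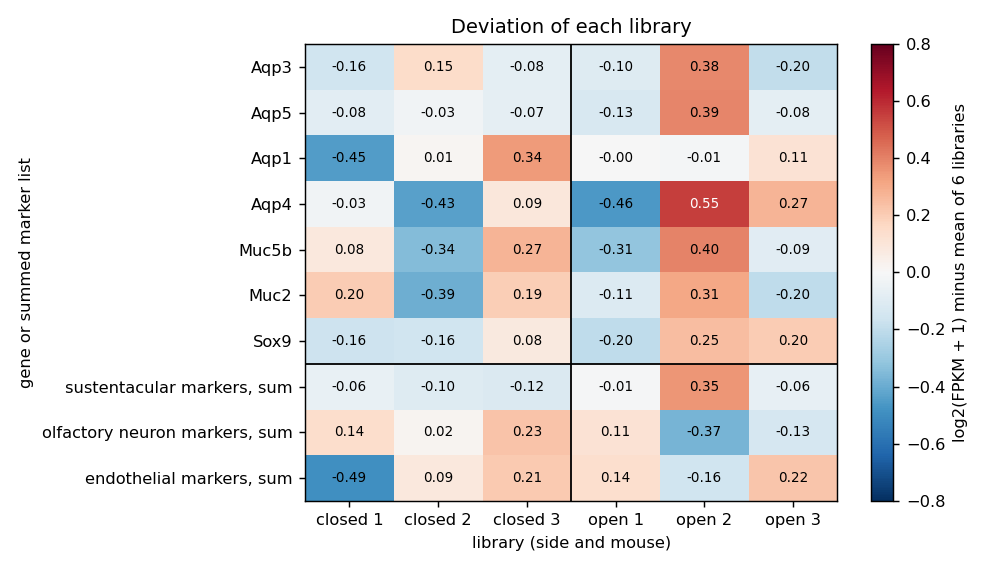
Deviation of each library from the mean of the 6 libraries, on log2(FPKM + 1), for the 7 genes and for 3 summed marker lists, closed libraries on the left and open libraries on the right. The open library of mouse 2 deviates by 0.25 to 0.55 in each gene but Aqp1 (-0.01), by 0.35 in the sustentacular sum and by -0.37 in the neuron sum, and the closed library of mouse 1 by -0.45 in Aqp1 and -0.49 in the endothelial sum.

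The 7 genes differed among themselves in which libraries were high. Over the 6 libraries the highest Pearson r between 2 of them was 0.92 for Aqp4 and Sox9, followed by 0.90 for Muc5b and Muc2, 0.89 for Aqp3 and Aqp5, and 0.85 for Aqp4 and Muc5b. Aqp1 had an r from -0.16 to 0.46 with the others, but some other pairs were low too, such as Aqp3 and Muc2 at 0.21. Among 10652 other rows whose mean reached 5 FPKM, those most like Muc5b were Nr2e1 (r = 0.997), Alox15 (0.988) and Rgma (0.980). Nr2e1 measured 17.4, 14.7 and 18.5 FPKM in closed mucosa and 14.9, 20.0 and 16.1 FPKM in open mucosa. The rows most like Muc2 were C77080 (0.987), Zscan25 (0.9753) and Dtx2 (0.972). For Aqp1 they were Mfap4 (0.991), Nceh1 (0.989) and Pdgfrb (0.983), of which Mfap4 encodes a protein of elastic fibres and Pdgfrb marks pericytes and fibroblasts. For Aqp3 they were Pccb (0.978), Ctf1 (0.977) and Vill (0.976), for Aqp4 Trim44 (0.995), Slc18b1 (0.992) and Kcnj15 (0.989), and for Sox9 Plk2 (0.990), Specc1 (0.987) and Smad2 (0.987). Aqp5 was most like Nfe2l3 (0.990), and the next rows, Mir6933 and Snord35a (both 0.986), were listed at 0 in every library but the open one of mouse 2. With 6 libraries and this many rows, values of r near 1 are found for any gene, so they only describe which libraries were high.

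Part of a list of secreted proteins of the nasal glands had log2 changes far beyond those of the 7 genes, though none passed the test with all libraries. Others did not: the secretoglobin Scgb1c1 had a log2 change of -0.07, the immunoglobulin transporter Pigr had -0.09 and the lysozyme Lyz2 had 0.22. Scgb1c1 stood at 4863 to 5259 FPKM in closed mucosa and 4689 to 6401 FPKM on the open side. Pigr varied widely, with 2.73, 19.0 and 6.75 FPKM in closed libraries, against 4.73, 13.8 and 7.22 FPKM in open libraries. The interval of its change ran from -1.41 to 1.23 (SE 0.57), so that the data set little limit on Pigr. The cell source of the Lyz2 values was not tested. Of 16 tested genes of a list of 20, 15 lay below 0, against 54.0% of all rows tested. Their median was -1.86, against a median of -0.06 over the 7 genes and -0.01 over all rows. Of the 16, 0 passed the test over all rows and 9, each lower in closed, had an unadjusted p under 0.05, against 1.45% of all rows. Without the closed library of mouse 3 the test called 3 of them, with a median of -2.60, and without that of mouse 1 it called 1, with a median of -0.87. Obp1a, an odorant-binding protein, measured 14.5, 6.94 and 70.2 FPKM in closed libraries, against 404.1, 542.7 and 279.4 FPKM in open libraries. For each FPKM of Aqp5 there were 0.12, 0.055 and 0.57 FPKM of Obp1a in closed libraries, against 3.42, 3.19 and 2.28 in open libraries. The ratio of Bpifa1, an abundant secreted antimicrobial protein, to Aqp5 overlapped between sides, at 23.4, 44.3 and 37.9 in closed libraries and 35.8, 44.4 and 41.2 in open libraries. The list and these ratios were picked with earlier results of these data known, and the ratios carry no test. The lipocalins Lcn11 and Lcn4 had log2 changes of -4.08 and -3.15, and Bpifb9a one of -4.89.

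**Figure D5:**
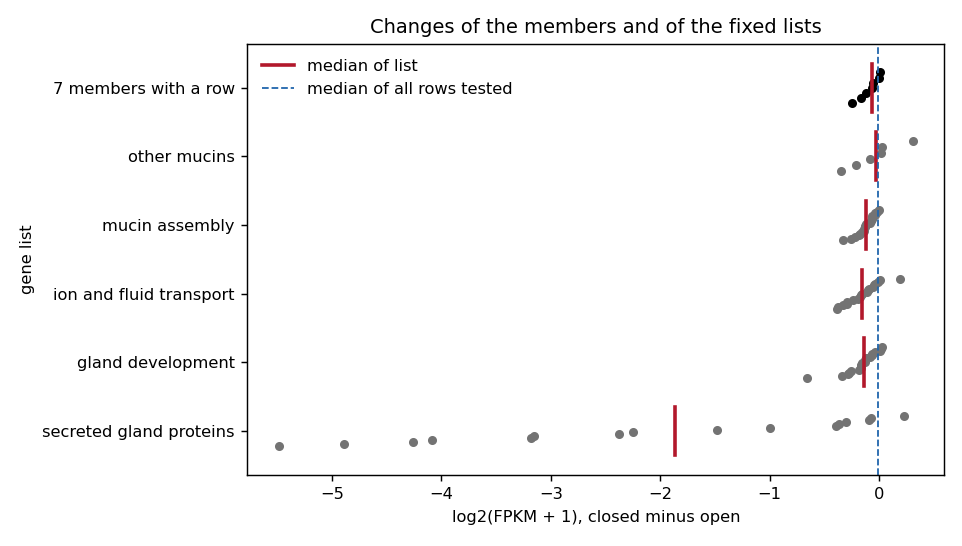
Log2 change, closed minus open, of each tested gene of the 7 with a row and of 5 further lists (points), with the list's median (red) and the median of all rows tested (dashed blue, -0.01). The 7 genes lie from -0.25 to 0.00, while the secreted gland proteins run from -5.48 to 0.22.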

How the data were processed

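RNA from olfactory mucosa was sequenced in 6 libraries, and the authors deposited gene-level FPKM made with Cufflinks on mm9, per the submitters' processing notes; the sources used here give no settings or versions. The FPKM are used as deposited. Per the file headers, the authors' library sheet gives the count of reads, the fraction of reads aligned, scores for RNA integrity and coverage, and the 28S to 18S ratio, used only to describe libraries. Reads behind single FPKM are unknown, so no counting interval is given.

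Rows were tested on log2(FPKM + 1) with limma 3.58.1 in R 4.3.3 (moderated test with a mean trend, two-sided), closed minus open, over 14788 rows whose mean reached 1 FPKM, with Benjamini-Hochberg adjustment over all of them and a threshold of 0.05. The script was tested on simulated data. Per the file headers, a closed and an open library share each number, and a shared number is read here as 1 mouse, so the numbers pair the samples. Deviations of same-numbered libraries correlated at 0.149, 0.0759 and 0.213 for mice 1, 2 and 3, against -0.169 to 0.00815 for different numbers. Separate animals make the 3 replicates. The fit has no mouse term, and the blocked fit is an alternative, as are other pseudocounts, floors, scalings and left-out libraries.

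The members and lists were chosen with earlier results of these data known. Genes named from a list are its 4 with the lowest p, except 1 that is not reported here; others named for their role or neighbourhood were chosen after their values were seen. The olfactory receptor sheet was not used. Promoter sequence is from RefSeq, with windows for 2 of the members shown.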

Additional observations from a re-analysis of the deposited data

How the results depend on the processing

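Under 14 alternatives, 0 of the 98 fits of the 7 genes passed the adjusted test, and the only unadjusted p under 0.05 was that of Aqp4 without the open library of mouse 1 (log2 change -0.54). The replicate block, with mouse as a term, cannot move a log2 change when both sides of each mouse are present. It gave 5 called rows in place of 7 and changed no call among the 7 genes. With the block the SE was lower for Aqp3 (0.12 in place of 0.18), Aqp1 (0.15 for 0.19), Aqp5 (0.13 for 0.16) and Sox9 (0.13 for 0.15). It was higher for Muc5b (0.24 for 0.22) and Muc2 (0.23 for 0.20), and 0.254 in place of 0.255 for Aqp4. Rows called over the whole table numbered 4 with no floor on low values and 4 to 12 when 1 library was left out, the lowest without the closed library of mouse 2 and the highest without that of mouse 3. With 1 library left out, the log2 change ranged from -0.25 to 0.14 for Aqp1, from -0.17 to 0.12 for Aqp3, from -0.54 to -0.03 for Aqp4, from -0.22 to 0.042 for Aqp5, from -0.10 to 0.20 for Muc2, from -0.15 to 0.20 for Muc5b and from -0.31 to -0.08 for Sox9. The sign of 5 of the 7 thus changed with the library left out, and the cause was not tested. In the other 8 alternatives no sign changed. Among those, the floors, the robust variance and the replicate block cannot move the log2 change of these genes. Only the pseudocounts and scalings could have changed a sign there. The 95% intervals are unadjusted and are no detection limits: Obp1a, with a log2 change of -4.26, did not pass the adjusted test either (limma adjusted p = 0.261).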

Other observations

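Markers of the other cell types of the mucosa give the tissue context of the 7 genes, and none of these lists held a gene past the adjusted test, with all libraries or with 1 left out. All 11 tested olfactory neuron markers had a log2 change above 0, closed minus open, with a median of 0.26. That median was 0.12, with 1 below 0, without the open library of mouse 2, 0.17, with 2 below 0, without the closed library of mouse 3, and 0.43 without the closed library of mouse 2. The 4 with the lowest p were Ano2 (0.48), the chloride channel of olfactory cilia, Cnga4 (0.40) and Cnga2 (0.32), subunits of the cyclic nucleotide-gated channel, and Stoml3 (0.41), a membrane protein of the cilia. Of 12 sustentacular markers 11 lay below 0, with a median of -0.15, among them Sult1c1 (-0.45), Cyp2g1 (-0.27), Sdc4 (-0.22) and Hes1 (-0.18). The open library of mouse 2 held the lowest value of 10 of the 11 neuron markers and the highest of 9 of the 12 sustentacular markers. Over all rows tested it held the lowest value of 11.2% and the highest of 18.5%. Without it 7 of the 12 sustentacular markers lay below 0, with a median of -0.02, and without the open library of mouse 1 the median was -0.28.

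All 9 tested markers of basal epithelium lay below 0, with a median of -0.21, led by Krt14 (-0.27), Itgb4 (-0.23), Trp63 (-0.22) and Krt15 (-0.41). Without the open library of mouse 2, or without the closed library of mouse 1, 6 of the 9 lay below 0, with a median of -0.04 in each case. Ensheathing glia markers had a median of -0.25, with Fabp7 at -0.52, Npy at -0.54 and S100b at -0.37. Fabp7 and Npy were highest in the open library of mouse 3, at 495.5 and 39.0 FPKM, and without that library the median of the list was -0.05, while without the open library of mouse 1 it was -0.40. Markers of myoepithelial cells, the contractile cells around gland acini, had a median of -0.01, with Krt14 at -0.27, Tagln at 0.15, Cnn1 at 0.17 and Acta2 at 0.08. The list shares Krt14 and Krt5 with that of basal epithelium, so it does not single out gland cells. Leaving out 1 library moved that median to between -0.05 and 0.25, the highest without the closed library of mouse 1. Markers of ciliated respiratory cells had a median of 0.02, with Sntn at -0.50, Cdhr3 at -0.42, Spag6 at -0.15 and Foxj1 at 0.09, and leaving out 1 library moved it to between -0.13, without the closed library of mouse 2, and 0.08, without that of mouse 1.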
